A study of Mus musculus with 20 samples.

Results

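The integrated stress response was examined in RNA-seq of mouse hearts through 10 genes, chosen by name: the eIF2 kinases *Eif2ak1*, *Eif2ak3* and *Eif2ak4*, the transcription factors *Atf4*, *Atf5* and *Ddit3*, and the target genes *Trib3*, *Asns*, *Sesn2* and *Gdf15*. All 10 were found among the 23420 genes of the count table, and all 10 were among the 13590 genes with enough reads to be tested. Hearts came from 10 male wild-type C57BL/6 mice (C57BL/6J in the study's methods) on an iron-adjusted control diet and 10 on an iron-deficient diet, referred to as IDA mice for their iron-deficiency anemia. Both diets were given for 6 weeks from 3 weeks of age, and hearts were taken at 9 weeks. Iron in the deficient diet is given as below 2 ppm in 1 label and above it in another, and the study's methods place it at that level or above. The tissue was whole heart, so in these bulk samples fewer cells of a type and less RNA per cell cannot be told apart.

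Cells under stress phosphorylate the translation factor eIF2, which slows its recycling by the exchange factor eIF2B and so lowers general protein synthesis. Each of the kinases that do this answers to a different signal. HRI, encoded by *Eif2ak1*, is held inactive by heme, and in red cell precursors it matches globin synthesis to the supply of iron and heme. It also relays mitochondrial stress through DELE1 and OMA1. PERK (*Eif2ak3*) senses unfolded protein in the endoplasmic reticulum, GCN2 (*Eif2ak4*) senses uncharged tRNA, and PKR (*Eif2ak2*) senses double-stranded RNA. When eIF2 is phosphorylated, the mRNA of *Atf4* is translated better, and ATF4 then switches on genes of amino acid supply and one-carbon metabolism as well as *Ddit3*, which encodes CHOP. Kinase activity and ATF4 protein are set largely after transcription and are not measured by mRNA counts.

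Counts on genes summed to between 6682177 and 8960688 read pairs in each heart. Values are given as CPM, which are counts scaled to the library total with edgeR's TMM factors, with the mean and SD of 10 mice per diet. Log2 fold changes are IDA over control, with standard errors (SE) and Benjamini-Hochberg adjusted p-values from edgeR's quasi-likelihood test over the 13590 tested genes, and a gene is called at an adjusted p below 0.05. Control hearts and IDA hearts differed in how log2 values depended on gene length (slopes from 0.02 to 0.20 in control mice and from -0.25 to -0.03 in IDA mice). Length trend and diet cannot be told apart, so values with each mouse's length trend removed are given wherever they alter a result, as are those with a trend on length and GC content removed. Defining markers of cardiomyocytes were present in every heart, with *Myh6* at a mean of 1364 CPM in control and 1426 CPM in IDA mice. Summed erythroid markers lay between 968 and 1122 CPM in control hearts and between 1005 and 1750 CPM in IDA hearts. *Sptb*, the most abundant of them, had a mean of 547.6 CPM in control and 469.3 CPM in IDA mice. Of the 7 tested, 5 were called higher and 2 lower (6 and 0 with the length trend removed). Their mean log2 CPM lay between 4.90 and 5.54 in control hearts and between 5.72 and 7.46 in IDA hearts, without overlap. This mean, used below as a covariate, is therefore largely confounded with diet. Summed leukocyte markers lay between 389 and 451 CPM and between 384 and 550 CPM, and 7 of the 11 tested were called higher and 2 lower (6 higher and 0 lower with the length trend removed). Of the 10 cardiomyocyte markers 4 were called higher and 0 lower (2 and 5 with the length trend removed). Of the 7 endothelial markers 3 were called higher and 3 lower (3 and 0 with that trend removed), and of the 7 fibroblast markers 1 and 1 (3 and 2). Of the 6 smooth muscle and pericyte markers 1 and 2 were called (2 and 1), and of the 4 tested adipocyte markers 1 and 0 (0 and 1). Of all tested genes, 35.0% were called higher and 32.5% lower, or 31.5% and 23.5% with the length trend removed. The part of these cell types in the results below was not tested.

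Of the 10 stress response genes, 6 were called higher in IDA hearts and 2 lower, while the heme-regulated kinase was not called. Those called higher were *Atf4*, *Atf5*, *Ddit3*, *Trib3*, *Asns* and *Gdf15*, and those called lower were *Eif2ak3* and *Eif2ak4*. Among all tested genes, 35.0% were called higher and 32.5% lower. The median log2 fold change of the 10 genes was 0.39, against 0.02 for all tested genes. With the length trend removed, *Atf4*, *Atf5*, *Trib3* and *Asns* were called higher (4 of 10, against 31.5% of tested genes), *Eif2ak3* was called lower (1 of 10, against 23.5%), and the median was 0.15. With the trend on length and GC content removed, *Atf5*, *Ddit3*, *Trib3* and *Asns* were called higher and *Eif2ak3* lower, with a median of 0.08. In that fit 3518 of 12772 tested genes were called higher and 2458 lower. *Atf4* was the only one of the 10 whose CPM in every IDA mouse lay above every control mouse, which held for 4.97% of tested genes. With the length trend removed, the diets overlapped in *Atf4*. On log2 CPM, the highest control mouse was then at 7.20 and the lowest IDA mouse at 7.12. The reverse, every IDA mouse below every control mouse, held for 6.28% of tested genes and for 0 of the 10.

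**Figure D1:**
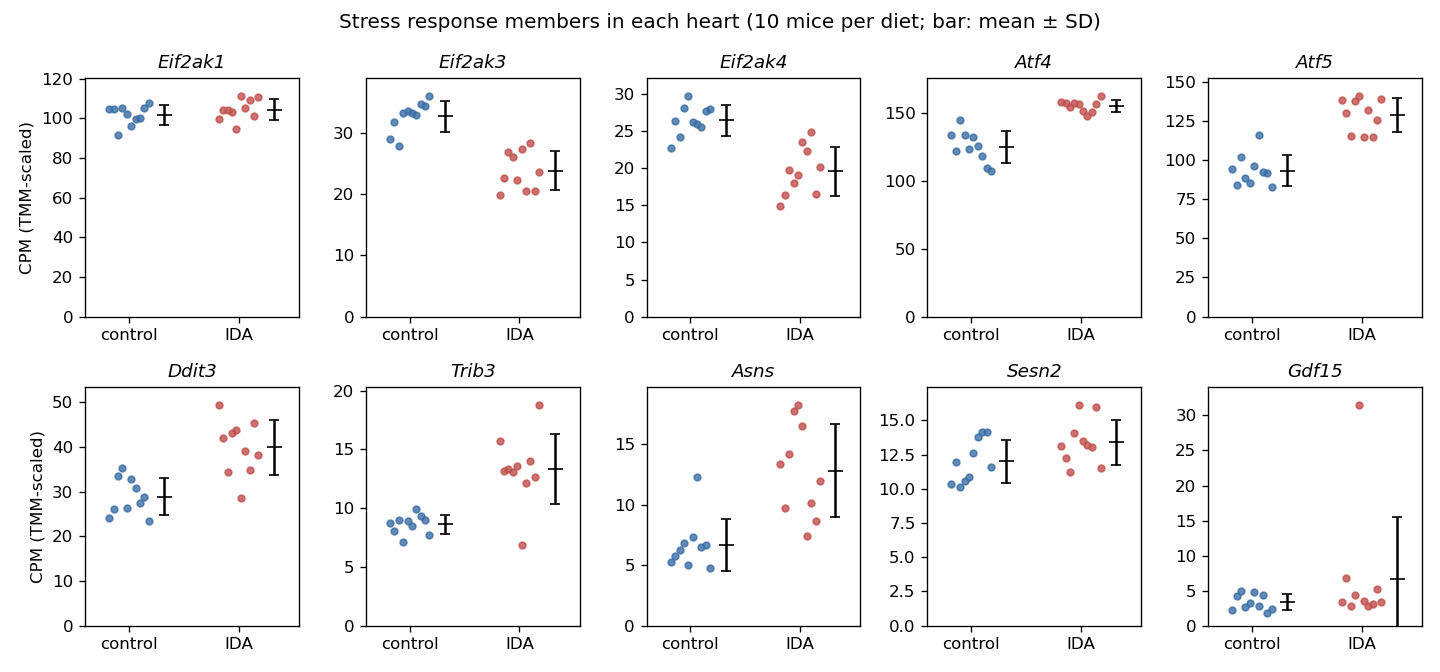
TMM-scaled CPM of each of the 10 genes in each mouse, by diet (points, 10 mice per diet), with the mean and SD at the right of each group and axes starting at 0. Every IDA mouse lies above every control mouse in *Atf4*, *Eif2ak1* overlaps almost fully, and a single IDA mouse at 31.5 CPM stands apart in *Gdf15*.

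*Eif2ak1*, on chromosome 5 of mm10 from 143871862 to 143902717, is the kinase that heme restrains. Control hearts had 101.7 ± 4.85 CPM (SD, n = 10), from 91.8 through a median of 103.3 to 107.5 CPM. IDA hearts had 104.3 ± 5.23 CPM (SD, n = 10), from 94.4 through a median of 104.2 to 111.2 CPM. Both groups covered nearly the same range, and 7 of 10 IDA mice were above the control mean. The log2 fold change was 0.04 (SE 0.04, edgeR adjusted p = 0.39), with a 95% interval from -0.04 to 0.11. It was not called in any of the alternatives tried, nor in any of 100 fits that each left out 1 mouse of each diet, where it ranged from 0.007 to 0.06. With the length trend removed it was 0.02, and with the mean of the erythroid markers as a covariate it was -0.01 (adjusted p = 0.95). The counted exons share 14 bp with those of *Aimp2*, and pairs in such an overlap were not assigned by the strandless counting.

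The other kinases were lower in IDA hearts. *Eif2ak3*, which encodes PERK, lies on chromosome 6 from 70844527 to 70905240. It ranged from 27.9 to 36.1 CPM in control mice (median 33.4) and from 19.8 to 28.5 CPM in IDA mice (median 23.2). The groups overlapped at their edge, with 9 of 10 IDA mice below the lowest control mouse. With the length trend removed, log2 CPM ran from 4.79 to 5.02 in control mice and from 4.54 to 4.87 in IDA mice. Its log2 fold change was -0.46 (SE 0.07, edgeR adjusted p = 6.6e-06), and with the length trend removed -0.22 (adjusted p = 0.00086). With the trend on length and GC content removed it was -0.28 (adjusted p = 0.00017).

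*Eif2ak4*, which encodes GCN2, lies on chromosome 2 from 118388617 to 118475234. Control values ran from 22.8 to 29.8 CPM (median 26.3) and IDA values from 15.0 to 24.9 CPM (median 19.5). Of the IDA mice, 8 of 10 were below every control mouse. With the length trend removed the IDA range covered the control range, on log2 CPM from 4.25 to 4.70 against 4.44 to 4.67. It had a log2 fold change of -0.44 (SE 0.08, edgeR adjusted p = 7.0e-05). It was not called with the length trend removed (-0.12, adjusted p = 0.10) or with the trend on length and GC content removed (-0.14, adjusted p = 0.062).

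*Eif2ak2*, the antiviral kinase PKR, is not among the 10 genes and is given to complete the kinases. It ran from 31.5 to 58.3 CPM in control mice and from 21.2 to 33.1 CPM in IDA mice, with 7 of 10 IDA mice below the lowest control mouse. The log2 fold change was -0.63 (SE 0.09, edgeR adjusted p = 2.7e-06). Length trend removal moved it to -0.41 (adjusted p = 0.00014) and removal of the trend on length and GC content to -0.25 (adjusted p = 0.011).

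Between genes, levels can be compared only per length of exon, and on that scale *Eif2ak1* was the most abundant kinase transcript. In control hearts *Eif2ak1* had 39.6 ± 1.88 RPKM (read pairs per kilobase of exon, scaled to the library total as for CPM), *Eif2ak2* 10.1 ± 1.60, *Eif2ak3* 7.29 ± 0.57 and *Eif2ak4* 5.05 ± 0.39 (SD, n = 10). Every mouse of both diets had at least 35.7 for *Eif2ak1* and at most 13.5 for any other kinase. *Eif2ak2* and *Eif2ak3* overlapped between mice within each diet (7.28 to 13.5 against 6.21 to 8.03 in control mice). *Eif2ak3* and *Eif2ak4* were apart in control mice (lowest 6.21 against highest 5.67) and overlapped in IDA mice (lowest 4.41 against highest 4.75). As a share of the summed level of all 4 kinases, *Eif2ak1* held 63.9% ± 1.79 in control hearts and 72.3% ± 2.14 in IDA hearts. *Eif2ak1* has 2571 bp of exon and the others between 4326 and 5248 bp, so these shares contain the length trend.

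**Figure D2:**
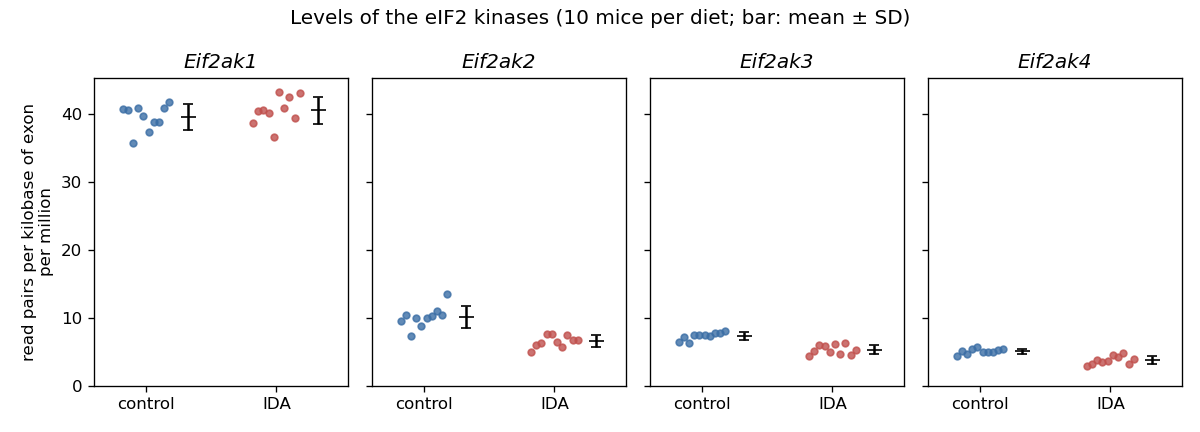
RPKM for the 4 eIF2 kinases in each mouse, by diet (points, 10 mice per diet), with the mean and SD beside each group and a shared axis from 0. *Eif2ak1* lies at 35.7 or more in every mouse and the other kinases at 13.5 or less, and the groups of *Eif2ak1* overlap.

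*Atf4* encodes the transcription factor at the center of the response and lies on chromosome 15 from 80255184 to 80257541. Control mice had 125.1 ± 11.6 CPM, from 107.3 to 144.7 (median 124.7), and IDA mice had 155.3 ± 4.26 CPM, from 147.9 to 162.5 (median 156.6). The IDA mice were both higher and closer together. Its log2 fold change was 0.31 (SE 0.05, edgeR adjusted p = 3.1e-06), or 1.24-fold. With the length trend removed it was 0.15 (adjusted p = 0.0039), and with the trend on length and GC content removed it was 0.05 (adjusted p = 0.38), which is not a call. The longest annotated transcript of *Atf4* has a GC content of 55.5%, and the part of GC content in this loss of the call was not tested.

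*Atf5*, a related factor tied to mitochondrial and proteotoxic stress, lies on chromosome 7 from 44812256 to 44816658. It ran from 82.7 to 116.4 CPM in control mice (median 91.9) and from 114.8 to 141.0 CPM in IDA mice (median 131.0). Control mouse 6 was the only control mouse that reached the IDA range. It had a log2 fold change of 0.47 (SE 0.06, edgeR adjusted p = 6.9e-07). It was 0.35 with the length trend removed (adjusted p = 5.8e-06) and 0.12 with the trend on length and GC content removed (adjusted p = 0.015). Exons of *Atf5* overlap those of *Nup62* and its read-through transcript. The overlap is 146 bp summed over both genes, so bases shared with both are counted for each.

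*Ddit3* encodes CHOP, the factor linked to cell death under lasting stress, and lies on chromosome 10 from 127290793 to 127296288. Values ran from 23.3 to 35.3 CPM in control mice (median 28.1) and from 28.6 to 49.4 CPM in IDA mice (median 40.5). Of the IDA mice, 7 of 10 lay above all control mice. With the length trend removed the diets overlapped more, on log2 CPM from 4.66 to 5.30 in control mice and from 4.81 to 5.34 in IDA mice. The log2 fold change was 0.47 (SE 0.09, edgeR adjusted p = 0.0001). Removal of the length trend ended the call (0.15, adjusted p = 0.097), whereas removal of the trend on length and GC content did not (0.24, adjusted p = 0.016). With 871 bp of exon, *Ddit3* is the shortest of the 10 genes, and 68 bp are shared with *Mars*.

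*Trib3* and *Asns* are targets of ATF4 whose promoters hold the core of the C/EBP-ATF response element, the motif that ATF4 binds with C/EBP partners. The motif TGATGNAA was searched on both strands in 300 bases around each RefSeq start (250 before to 50 after, GRCm38.p6). It was found in these 2 of the 10 genes (20%) and in 4.51% of 27025 promoters. Among other listed targets of ATF4 and CHOP, 12 of the 30 with a promoter in the reference held it (40%). The listed targets include genes known for this element, so this share is not independent of the list. The windows of these 2 genes and of 4 other targets are shown because their differences between diets are given here, 5′ to 3′ on the strand of the gene, with the motif or its reverse complement in capitals.
*Asns* chr6:7693214-7693243 (-): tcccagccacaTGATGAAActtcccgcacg
*Trib3* chr2:152344028-152344057 (-): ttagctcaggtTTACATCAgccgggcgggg
*Atf3* chr1:191183425-191183454 (-): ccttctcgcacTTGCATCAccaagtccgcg
*Chac1* chr2:119351038-119351067 (+): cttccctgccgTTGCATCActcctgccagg
*Nupr1* chr7:126625562-126625591 (-): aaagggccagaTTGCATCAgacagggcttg
*Vldlr* chr19:27216809-27216838 (+): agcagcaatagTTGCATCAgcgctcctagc
In *Asns* the motif lies 23 to 16 bases before the start, and in *Trib3* it lies 15 to 22 bases after it on the opposite strand. A match is a sequence only and does not show binding.

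*Trib3* encodes a pseudokinase that damps ATF4 signalling and lies on chromosome 2 from 152337425 to 152344060. Control mice were tightly grouped from 7.08 to 9.91 CPM (median 8.81). IDA mice ran from 6.87 to 18.8 CPM (median 13.2), with 9 of 10 above every control mouse and IDA mouse 5 below every control mouse. Between diets the log2 fold change was 0.63 (SE 0.12, edgeR adjusted p = 7.5e-05), with 0.52 after removal of the length trend (adjusted p = 0.00067) and 0.34 after removal of the trend on length and GC content (adjusted p = 0.015). The mean count was 66.4 in control and 95.5 in IDA hearts.

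*Asns*, asparagine synthetase, lies on chromosome 6 from 7675171 to 7693182. Control mice ran from 4.73 to 12.3 CPM (median 6.39), with control mouse 6 alone above 7.36 CPM. IDA mice ran from 7.41 to 18.2 CPM (median 12.7), and all 10 were above the control mean. The log2 fold change was 0.95 (SE 0.18, edgeR adjusted p = 7.4e-05), a 1.93-fold difference. Neither trend removal altered the call (0.82 with length, 0.89 with length and GC content). With the erythroid marker mean as a covariate it was 0.63, with a larger SE of 0.28, and was not called (adjusted p = 0.059). That mean did not overlap between diets, so the covariate and diet are largely confounded. The part of the erythroid signal in this difference was not tested further. Of the 17 erythroid markers, 7 were tested, with 5 higher and 2 lower in IDA hearts, and *Hba-a1*, *Hba-a2* and *Hbb-b2* were listed at 0 in all mice.

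*Sesn2*, a leucine sensor that restrains mTORC1, lies on chromosome 4 from 132492807 to 132510456. It had 12.02 ± 1.58 CPM in control mice and 13.4 ± 1.65 CPM in IDA mice, with ranges of 10.2 to 14.2 and 11.2 to 16.1 CPM that largely overlapped. The difference did not pass the threshold (log2 fold change 0.15, SE 0.09, edgeR adjusted p = 0.12, 95% interval from -0.01 to 0.32). It was called with log2 library size as a covariate (0.32, adjusted p = 0.0043) and had the opposite sign with the trend on length and GC content removed (-0.07, adjusted p = 0.47). Library totals were lower in IDA mice in the median, so size and diet are partly confounded.

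*Gdf15* encodes a secreted stress cytokine and lies on chromosome 8 from 70629394 to 70631635. Control mice ran from 1.80 to 4.93 CPM (median 2.94), and IDA mice from 2.81 to 31.5 CPM (median 3.41). A single animal, IDA mouse 4, had 31.5 CPM, and the other 9 IDA mice had at most 6.78 CPM. Of the 10 IDA mice, 5 were above the control mean. Its log2 fold change over all mice was 1.02 (SE 0.42, edgeR adjusted p = 0.035), and without IDA mouse 4 it was 0.24 (adjusted p = 0.32). DESeq2 gave 0.21 (adjusted p = 0.38), and with the length trend removed it was 0.73 (adjusted p = 0.14). The call was also lost without control mouse 1, 3, 6, 8 or 9 (adjusted p from 0.050 to 0.066), and it was made in 72 of the 100 fits that left out a mouse of each diet. Called in all 100 of those fits were *Eif2ak3*, *Eif2ak4*, *Atf4*, *Atf5*, *Ddit3*, *Trib3* and *Asns*.

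**Figure D3:**
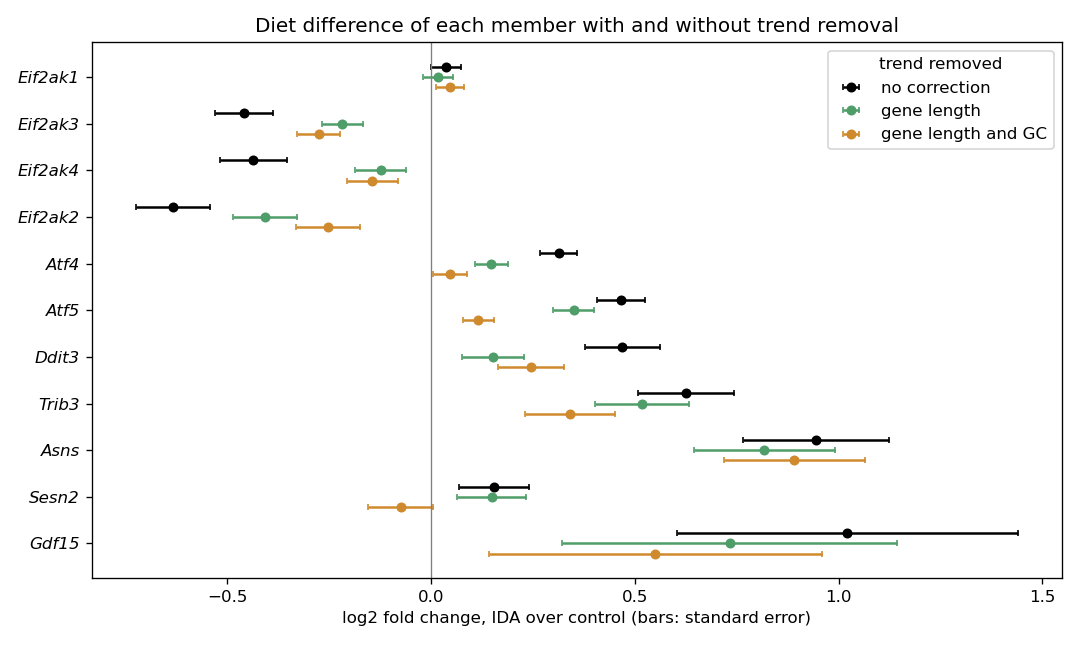
Log2 fold change of IDA over control for the 10 genes and *Eif2ak2* without any correction, with the gene length trend removed and with the trend on length and GC content removed (points, with bars of 1 standard error from edgeR). *Asns* stays near 0.9 in all fits, *Atf4* falls from 0.31 to 0.05, and *Eif2ak1* lies near 0 throughout.

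Each column name of the counts holds a number, called the library number here. These numbers form a lower stretch, or run (5 control and 7 IDA mice), and a higher run (5 control and 3 IDA mice). What the numbers and the runs stand for is not given in the sources used here. Within each run, *Eif2ak3*, *Eif2ak4*, *Atf4*, *Atf5*, *Ddit3*, *Trib3* and *Asns* were called in the direction of the pooled fit. In *Asns* the log2 fold change was 0.73 in the lower run and 1.29 in the higher, and in *Atf4* it was 0.41 and 0.22. In *Eif2ak1* it was 0.02 in both. In *Gdf15* it was 1.39 (adjusted p = 0.065) in the lower run, which holds IDA mouse 4, and -0.03 (adjusted p = 0.94) in the higher.

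IDA hearts were not alike in which target genes were high. Relative to the control mean, *Asns* was higher by 1.01 to 1.46 on the log2 scale in IDA mice 1 to 5 and by 0.16 to 0.85 in IDA mice 6 to 10. *Chac1*, which encodes a glutathione-degrading enzyme and is a CHOP and ATF4 target, was 7.53 to 13.2 CPM in IDA mice 1 to 4. In IDA mice 5, 7 and 9 it was 17.6, 17.3 and 20.7 CPM, and in IDA mice 6, 8 and 10 it was 25.4 to 28.2 CPM. The IDA values thus formed a spread without a clear gap, against 7.77 to 17.7 CPM in control mice. *Chac1* was not called between diets (log2 fold change 0.41, SE 0.21, edgeR adjusted p = 0.088). IDA mice 6 to 10 have consecutive library numbers, and the part of library order in these differences was not tested. IDA mouse 4 had the highest IDA value of *Gdf15*, of *Mthfd2* (29.7 CPM), of the amino acid transporter gene *Slc7a5* (44.5 CPM) and of *Asns*, *Atf5* and *Sesn2*. It had the lowest IDA value of *Eif2ak1*. Its median correlation with the other IDA mice, across genes on log2 CPM, was also the lowest of its group, at 0.977, against 0.978 to 0.985 for the others. IDA mouse 5, lowest of its group in *Trib3* and *Ddit3*, had 16.5 CPM of *Asns*, the third highest of the group. *Chac1* and *Slc7a5* were chosen for naming after their values were seen.

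**Figure D4:**
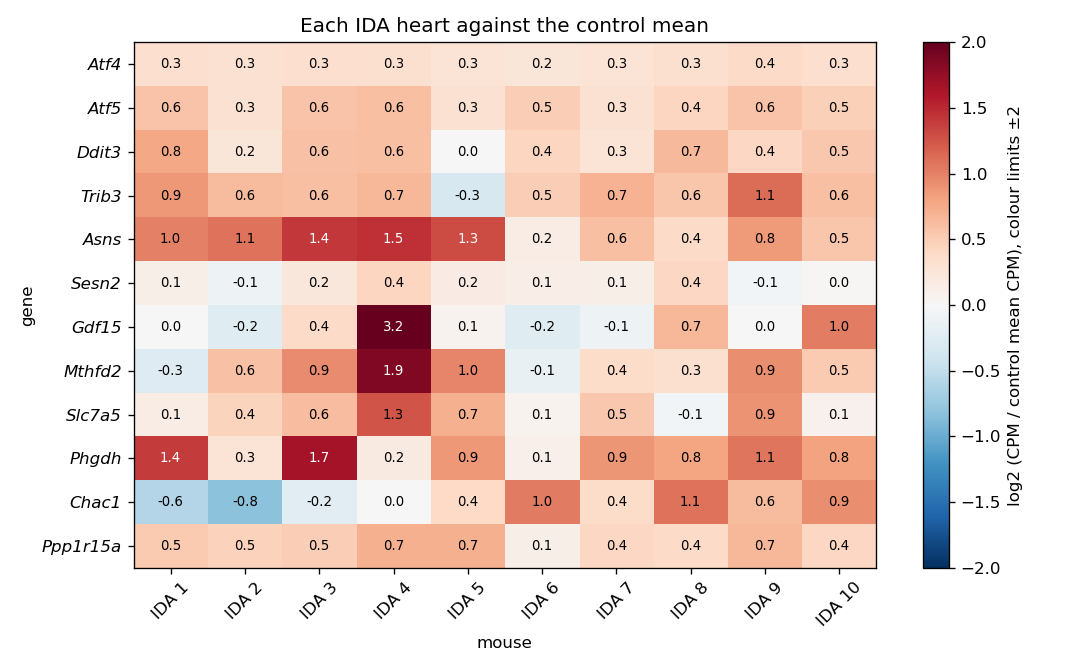
Log2 ratio of each IDA mouse's CPM to the control mean, for 7 of the 10 genes and 5 related genes (colors end at -2 and 2, numbers give the ratio). *Atf4* is near 0.3 in all 10 mice, while *Asns*, *Chac1* and *Phgdh* vary from mouse to mouse, and *Gdf15* stands out in IDA mouse 4.

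Whether each of the 10 genes varied from mouse to mouse with the mean log2 CPM of 36 other ATF4 and CHOP targets was tested within each diet, which gave 20 relations over 10 mice each. None passed the adjustment. The smallest p by Pearson's r was that of *Gdf15* in control mice (r = 0.50, permutation p = 0.14, adjusted p = 0.85, and Spearman's rho = 0.44, permutation p = 0.20, adjusted p = 0.84), and r was 0.50 once the 2 mice most distant from the median of that mean were left out. By Spearman's rho it was that of *Gdf15* in IDA mice (rho = 0.70, permutation p = 0.031, adjusted p = 0.61, and r = 0.49, permutation p = 0.16, adjusted p = 0.85), where r was 0.47 without such mice. *Gdf15* in control mice had, after removal of the length trend, r = 0.69 (permutation p = 0.033, adjusted p = 0.67) and rho = 0.72 (permutation p = 0.024, adjusted p = 0.47). For *Atf4*, Pearson's r was -0.06 in control mice (permutation p = 0.86) and 0.08 in IDA mice (permutation p = 0.82).

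Of 14 tested genes of the eIF2 complex, its exchange factor and its phosphatase, on which eIF2 phosphorylation acts, 9 were called higher and 2 lower, against 35.0% and 32.5% of all tested genes, with a median log2 fold change of 0.18. These counts were the same with the length trend removed (median 0.12), against 31.5% and 23.5% of all tested genes. Each of the 5 subunit genes of eIF2B was called higher. *Eif2b4* ran from 91.4 to 112.8 CPM in control mice and from 113.7 to 153.6 CPM in IDA mice, with no overlap (log2 fold change 0.40, SE 0.05, edgeR adjusted p = 1.1e-06). *Eif2b1*, *Eif2b2* and *Eif2b5*, chosen for naming after their values were seen, did not overlap between diets either, with log2 fold changes of 0.26, 0.37 and 0.37. On CPM, every IDA mouse lay above every control mouse in 4.97% of tested genes. *Eif2b3*, also named after its values were seen, had 0.39. With the length trend removed, all 5 were called, at 0.31 for *Eif2b4*, 0.14 for *Eif2b1*, 0.17 for *Eif2b2*, 0.34 for *Eif2b5* and 0.58 for *Eif2b3*. Overlap between mice was not examined in that fit. With the trend on length and GC content removed, all 5 were still called, at 0.15 for *Eif2b4*, 0.16 for *Eif2b1*, 0.09 for *Eif2b2*, 0.26 for *Eif2b5* and 0.67 for *Eif2b3*.

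The subunits that direct the eIF2 phosphatase differed from each other. *Ppp1r15a* (GADD34), the stress-inducible one, ran from 57.2 to 76.5 CPM in control mice and from 69.5 to 104.7 CPM in IDA mice (log2 fold change 0.50, SE 0.07, edgeR adjusted p = 1.1e-06, and 0.44 with the length trend removed). *Ppp1r15b* (CReP), the constitutive one, ran from 72.4 to 108.6 CPM in control mice and from 60.9 to 96.2 CPM in IDA mice (log2 fold change -0.42, SE 0.08, edgeR adjusted p = 5.3e-05). Removal of the length trend ended that call (-0.08, adjusted p = 0.21). *Eif2s3x*, a gene of the gamma subunit of eIF2, had -0.33 (SE 0.07, edgeR adjusted p = 0.00022), -0.20 with the length trend removed (adjusted p = 0.0090) and -0.04 with the trend on length and GC content removed (adjusted p = 0.57).

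Of 12 upstream inputs and kinase partners, 4 were called higher and 3 lower (median 0.007), shares near those of all tested genes (35.0% and 32.5%). *Tarbp2*, whose product restrains PKR, had a log2 fold change of 0.44 (SE 0.07, edgeR adjusted p = 8.8e-06) and *Abcf1*, a partner of eIF2, 0.24 (SE 0.04, edgeR adjusted p = 4.4e-05). *Dnajc3*, which encodes the PERK and PKR inhibitor p58IPK, had -0.36 (SE 0.05, edgeR adjusted p = 1.8e-06). It was not called with the length trend removed (-0.05, adjusted p = 0.26) and was called higher with the trend on length and GC content removed (0.11, adjusted p = 0.032). Of the DELE1 and OMA1 relay that feeds HRI, *Dele1*, listed as *0610009O20Rik*, had 260.9 ± 14.7 CPM in control and 293.2 ± 23.4 CPM in IDA hearts (log2 fold change 0.17, SE 0.05, edgeR adjusted p = 0.0023). With the length trend removed *Dele1* had 0.12 (adjusted p = 0.035). It had no GC content value and so was not in the fit on length and GC content. *Oma1* had 0.03 (SE 0.04, edgeR adjusted p = 0.60). It was called lower with the length trend removed (-0.11, adjusted p = 0.024), and not with the trend on length and GC content removed (-0.06, adjusted p = 0.26). Both of these genes were named after their values were seen.

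Of 36 tested other targets of ATF4 and CHOP, 16 were called higher and 7 lower, against 35.0% and 32.5% of all tested genes, with a median log2 fold change of 0.16, and *Fgf21*, *Slc7a11* and *Slc7a3* were too low to test. With the length trend removed, 13 were called higher and 3 lower, against 31.5% and 23.5% of all tested genes. With the erythroid marker mean as a covariate, which is largely confounded with diet, 8 were higher and 6 lower (27.5% and 27.1% of all tested genes). In the higher run of library numbers alone, 6 were higher and 8 lower (19.4% and 24.1% of all tested genes), shares near those of all tested genes. *Phgdh*, the entry enzyme of serine synthesis, ran from 0.491 to 1.74 CPM in control mice and from 1.19 to 3.48 CPM in IDA mice (log2 fold change 0.89, SE 0.24, edgeR adjusted p = 0.0022), at few read pairs per mouse. *Mthfd2*, a mitochondrial folate enzyme, ran from 4.80 to 11.3 CPM and from 6.88 to 29.7 CPM (log2 fold change 0.74, SE 0.22, edgeR adjusted p = 0.0042).

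*Aldh1l2*, another mitochondrial folate enzyme, went the other way, from 27.4 to 59.1 CPM in control mice and from 9.75 to 29.3 CPM in IDA mice (log2 fold change -0.92, SE 0.15, edgeR adjusted p = 8.6e-06). With the length trend removed it was -0.53 (adjusted p = 0.00087). *Klhl24*, a ubiquitin ligase adaptor, ran from 342.0 to 529.3 CPM and from 181.8 to 378.3 CPM (log2 fold change -0.80, SE 0.12, edgeR adjusted p = 4.8e-06). It moved to -0.38 with the length trend removed (adjusted p = 0.0011) and to -0.19 with the trend on length and GC content removed (adjusted p = 0.047).

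The 4 other genes whose windows are printed above, named after their values were seen, did not move together. *Atf3*, a stress-induced repressor, had a log2 fold change of 0.64 (SE 0.26, edgeR adjusted p = 0.035) and *Nupr1*, a small stress regulator, 0.61 (SE 0.15, edgeR adjusted p = 0.00085). Neither was called with the length trend removed (0.51 with adjusted p = 0.097, and 0.25 with adjusted p = 0.12). *Vldlr*, a lipoprotein receptor gene, had -0.36 (SE 0.07, edgeR adjusted p = 8.6e-05) and turned to 0.16 with the length trend removed (adjusted p = 0.030) and to 0.28 with the trend on length and GC content removed (adjusted p = 0.0010). *Chac1* is given above.

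In the IRE1 and ATF6 arms of the unfolded protein response, 9 of 20 genes were called higher and 7 lower (median 0.07), against 35.0% and 32.5% of all tested genes. The share lower was near that of all tested genes. After length trend removal 4 were higher and 4 lower, against 31.5% and 23.5% of all tested genes. *Ern1*, the gene of the sensor IRE1, ran from 15.2 to 36.3 CPM in control mice and from 8.07 to 18.4 CPM in IDA mice (log2 fold change -1.16, SE 0.17, edgeR adjusted p = 3.3e-06, and -0.98 with the length trend removed). *Sel1l*, of the degradation machinery, did not overlap between diets, with a control minimum of 177.0 and an IDA maximum of 170.6 CPM (log2 fold change -0.70, SE 0.07, edgeR adjusted p = 2.1e-07, and -0.30 with the length trend removed). On CPM, every IDA mouse lay below every control mouse in 6.28% of tested genes. *Sec61b*, of the translocation channel, had 0.48 (SE 0.10, edgeR adjusted p = 0.00018) and the chaperone cofactor gene *Sdf2l1* 0.36 (SE 0.10, edgeR adjusted p = 0.0028). Neither was called with the length trend removed (0.11 and 0.08), and *Sdf2l1* had -0.03 with the trend on length and GC content removed.

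In the list of mitochondrial protein stress, 8 of 15 genes were called higher and 1 lower (median 0.10), against 35.0% and 32.5% of all tested genes. After length trend removal 4 were higher and 2 lower, against 31.5% and 23.5%. *Phb*, of the prohibitin complex, had a log2 fold change of 0.35 (SE 0.05, edgeR adjusted p = 4.4e-06, 0.19 with the length trend removed, and 0.09 with adjusted p = 0.080, not a call, with the trend on length and GC content removed). *Clpp*, a matrix protease gene, had 0.32 (SE 0.05, edgeR adjusted p = 7.9e-06). Its call was lost with the length trend removed (0.06), and it had -0.06 with the trend on length and GC content removed. *Yme1l1*, an inner membrane protease gene and the one called lower, had -0.20 (SE 0.05, edgeR adjusted p = 0.0011). It was 0.05 with the length trend removed (adjusted p = 0.40) and 0.30 with the trend on length and GC content removed (adjusted p = 2.1e-05).

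**Figure D5:**
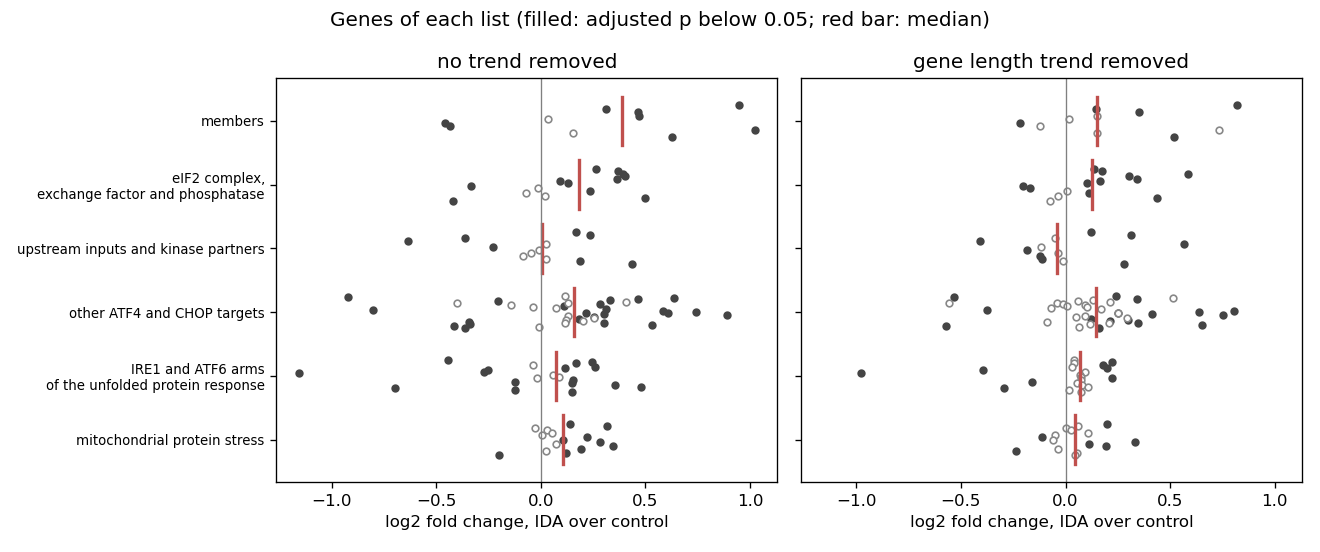
Log2 fold change of IDA over control for the tested genes of the 10-gene set (members) and of each list, without correction (left) and with the gene length trend removed (right). Points are genes, filled where the adjusted p is below 0.05, and red bars are medians. The list of other ATF4 and CHOP targets spreads to both sides of 0 (16 called higher and 7 lower at left, 13 higher and 3 lower at right). Of all tested genes, 35.0% were called higher and 32.5% lower without correction, and 31.5% and 23.5% with the length trend removed.

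Among the genes whose deviations from the mean of their diet were most like those of *Eif2ak1* over the 20 mice were *Gltscr1l* (Pearson's r = 0.82), *2610008E11Rik* (0.82), *Setd1b* (0.81) and *Gcfc2* (0.81), out of 13589 genes. With the length trend removed, *Gcfc2* was the only one of these still among the nearest 5. For *Gdf15* they were *Cnksr1* (r = 0.86), *Nlrc3* (0.83), *Acox2* (0.83), *Uck2* (0.82) and *Adap1* (0.82), and *Cnksr1*, *Nlrc3* and *Acox2* stayed among the nearest 5. These are descriptions of 20 libraries that share depth and length trends, and those of *Gdf15* contain IDA mouse 4.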

How the data were processed

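RNA was extracted from whole hearts, poly-(A) mRNA was sequenced as paired 75-bp reads, and the authors used STAR for alignment to mm10, samtools to drop PCR duplicates and featureCounts (version 1.4.5-p1), ignoring strand, for counting pairs on exons. The deposited values are these counts, without normalization, for 23420 genes, with exonic lengths. Groups follow the labels. The study excluded 1 mouse per group that it does not name, so all 20 were kept.

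In R 4.3.3, the 13590 genes that reached 1 CPM in 10 or more mice were compared in edgeR 4.0.16 (TMM, quasi-likelihood test, diet as the only factor), and with DESeq2 1.42.0 as an alternative. Low genes such as *Phgdh* rest on few pairs. Log2 CPM used a prior count of 2. The length correction entered, as offsets, a loess curve (span 0.5, degree 1) of each mouse's deviations on log2 exonic length. A further fit (12772 genes) added GC content, taken from the longest annotated transcript of each gene. Either correction removes any trend, technical or biological. Permutation tests were two-sided with 100000 resamples. The steps were tested on simulated data. Other alternatives were other scalings and filters, covariates, the replicate number as a block, and each mouse left out. Library numbers, and further settings for the lists, were added after the data were examined.

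The 10 genes, the lists and the tests were chosen with earlier results of these data known. Besides the 10 genes, the text names *Eif2ak2*, the 2 most raised and 2 most lowered called genes of each list, the 5 genes most like *Eif2ak1* and *Gdf15*, and markers at 0 or most abundant. Some genes that this rule selects are not reported here. Other names are said to be chosen after their values were seen.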

Additional observations from a re-analysis of the deposited data

Results flagged for a closer look

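In 80 groups of 10 mice (40 genes in each diet), 7 had a highest or lowest mouse farther from the others than Dixon's 95% limit for 10 values. For a single group, chance gives about 1 in 20. The 40 genes share the same mice, and some were chosen after their values were seen. The count of 7 in 80 therefore cannot be set against that rate. IDA mouse 4 accounted for 4 of them, with *Gdf15* at 31.5 CPM, *Mthfd2* at 29.7 CPM and *Nupr1* at 29.7 CPM, each the highest of the IDA mice, and *Aldh1l2* at 9.75 CPM, the lowest. Control mouse 6 had *Asns* at 12.3 CPM, the highest of the control mice, and *Vldlr* at 609.6 CPM, the lowest. Control mouse 2 had *Ppp1r15b* at 72.4 CPM, the lowest of the control mice.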

How the results depend on the processing

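The count of genes called higher among the 10 lay between 4 and 7 over the settings tried (7 with the library size covariate), and *Eif2ak3*, *Atf5* and *Trib3* kept their calls in all of them. The count called lower fell from 2 to 1 with the length trend removed, alone (1) or with the replicate block (1), and with the trend on length and GC content removed (1). *Eif2ak4* was then not called (-0.12 with length, -0.14 with length and GC content, -0.13 with length and the replicate block), nor was *Ddit3* with length (0.15) or with length and the block (0.15), nor *Atf4* with length and GC content (0.046). *Asns* lost its call with the erythroid covariate (0.63), which is largely confounded with diet and under which *Eif2ak1* had -0.0054. *Sesn2* was called with the library size covariate (0.32) and turned to -0.075 with length and GC content removed. *Gdf15* was not called by DESeq2 (0.21), with length (0.73), length and GC content (0.55), the erythroid covariate (1.01), the replicate block (0.61), the block and length (0.35), or the run of library numbers as a factor (0.88). In the lower and higher runs alone it had 1.39 and -0.033. The causes of these changes were not tested.

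With 1 mouse left out at a time, the count called higher lay between 5 and 6, and *Gdf15* between 0.24 (without IDA mouse 4) and 1.11. With 1 mouse of each diet left out, *Gdf15* lay between 0.14 and 1.18. Where 1 mouse was left out at a time, the range was 0.87 to 1.09 for *Asns*, 0.28 to 0.34 for *Atf4*, 0.42 to 0.52 for *Ddit3*, -0.48 to -0.41 for *Eif2ak4*, 0.02 to 0.05 for *Eif2ak1* and 0.12 to 0.18 for *Sesn2*. Where 1 mouse of each diet was left out, it was 0.83 to 1.15 for *Asns*, 0.27 to 0.35 for *Atf4* and 0.39 to 0.55 for *Ddit3*. In the same fits it was -0.50 to -0.38 for *Eif2ak4*, 0.007 to 0.06 for *Eif2ak1* and 0.10 to 0.21 for *Sesn2*.

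In the lists, with the length trend removed, 3 other ATF4 and CHOP targets were lower, 4 genes of the IRE1 and ATF6 arms were higher and 4 lower, and 4 genes of mitochondrial protein stress were higher and 2 lower. Of all tested genes, 31.5% were higher and 23.5% lower in that fit. With length and GC content removed, 10 of 36 other targets were higher and 3 lower. Also lower were 4 genes of the IRE1 and ATF6 arms, 2 of mitochondrial protein stress, 1 upstream input and 0 of the eIF2 machinery. In that fit 3518 of 12772 tested genes were higher and 2458 lower. The share of other targets called higher was thus near that of all tested genes. With the erythroid covariate, 8 other targets were higher, as were 27.5% of all tested genes. In the higher run of library numbers, those called higher were 5 of the eIF2 machinery, 2 upstream inputs, 6 other targets, 2 of the IRE1 and ATF6 arms and 3 of mitochondrial protein stress, and 1 of the eIF2 machinery was lower. That run holds fewer mice, and in it 19.4% of all tested genes were higher and 24.1% lower. Signs turned for *Vldlr* (0.16), *Oma1* (-0.11) and *Yme1l1* (0.047) with length removed, and for *Vldlr* (0.28), *Oma1* (-0.057), *Dnajc3* (0.11), *Yme1l1* (0.30), *Clpp* (-0.065) and *Sdf2l1* (-0.031) with length and GC content removed. Of the correlations with other targets, *Atf4* in control mice turned to 0.20, and *Eif2ak1* and *Eif2ak3* in IDA mice to -0.021 and -0.046, with none past the threshold.

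Deviations of same-numbered mice of the diets had correlations from -0.28 to 0.26. These were not compared with those of differently numbered mice, so whether the numbers pair the mice was not tested. Under the replicate block 5 of the 10 genes were higher and 2 lower, and over all tested genes 4584 were higher and 4328 lower, against 4761 and 4416 without it. *Gdf15* averaged 25.5 counted pairs in control mice, and its SE of 0.42 was 0.21 without IDA mouse 4.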
